A study of Homo sapiens with 6 samples.

Results

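Long continuously crosslinked domains are stretches of one genomic strand in which every 10 kb window carried crosslink events in QKI-5 iCLIP. Events were summed over strand-specific 10 kb windows of chromosomes 1 to 22 in the hg19 build. A window passed when it held at least 5 EPM (crosslink events per 1000000 in the whole library) in each of the 3 QKI-5 libraries, and a domain was a run of 10 or more passing windows in a row on one strand. This gave 760 domains made of 10969 windows, or 6.28% of the 174732 windows that held any event in any library. The QKI-5 level of the domains chose them and is given below only as a description. The control libraries and the placement of events inside a domain did not enter the rule.

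The 6 libraries were made from BEAS2B cells, a human cell line of bronchial epithelium, irradiated with UV at 150 mJ per cm2 so that proteins were linked to the RNA they touched. The 3 QKI-5 libraries were made with a self-made antibody against QKI-5, and the 3 control libraries carry the label that no antibody was used. Both groups come from the same line and bear the replicate numbers 1 to 3, and lysates were treated with a high or a low dilution of RNase A, with no label saying which library had which. No label ties the replicates to separate cultures. A p-value here therefore reflects only how far these libraries spread, which may be technical.

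QKI-5 is the nuclear isoform of Quaking, a STAR-family RNA-binding protein that recognises a short RNA element in pre-mRNA and acts on splicing, including the formation of circular RNAs. In iCLIP, reverse transcription stops next to the amino acid left on the RNA, so each event marks a contact to the nucleotide. Introns make up most of the length of a long pre-mRNA and are removed in the nucleus, where QKI-5 resides. No hg19 gene annotation or genome was used here. Domains are therefore named by coordinates, counted from 1, without gene, exon, intron or UTR, and no sequences are shown.

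The QKI-5 libraries held 2143279 to 7283982 events and the controls 29810 to 137926. One event is 7.25, 24.1 and 33.55 EPM in controls 1, 2 and 3, so a single domain window held on average 2.76, 0.715 and 0.626 control events. Values of single windows and short stretches are therefore coarse in the controls. Whole domains held 8 to 536 events over the pooled controls, with a median of 46. No source used here says whether PCR copies were merged by barcode, and floors cover counting error only.

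The domains covered 109.69 Mb of single-strand sequence, 416 on the plus and 344 on the minus strand. Their median length was 13 windows, 160 were exactly 10 windows long, 100 had 20 or more and 26 had 30 or more. The longest held 50 windows. Chromosome 1 carried the most domains, 77 of them over 10.82 Mb, and chromosome 19 the fewest, 8 over 0.9 Mb. At the limit of the rule, the 160 runs of 10 windows held 23.3, 21.3 and 21.85 EPM per window in QKI-5 libraries 1, 2 and 3, and the 201 runs of 9 windows just outside it held 22.6, 20.9 and 21.8 EPM per window. The limit thus cuts through runs of like level.

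The edges differed in how many libraries fell under the threshold. Of the 1520 windows that ended a domain, 886 were under 5 EPM in all 3 QKI-5 libraries, 206 in 2 of them and 428 in only 1. No QKI-5 event at all was found in 247. There were 28 pairs of domains separated by a single failing window on the same strand. Domains were almost always on one strand alone: a single pair overlapped between strands.

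The first question was how much of each library lay in the domains. By the rule itself, the 760 domains held 28.45, 26.2 and 26.9% of the events of QKI-5 libraries 1, 2 and 3, and they also held 21.9, 18.9 and 23.02% of the events of controls 1, 2 and 3. To spare each QKI-5 library the choice of its own domains, domains were also called from 2 QKI-5 libraries and measured in the remaining one and in the controls. Such domains are still chosen where QKI-5 libraries are high, which favours a higher QKI-5 share, so the values are given without a test. In such domains, of 11444, 13933 and 12639 windows, the QKI-5 libraries 1, 2 and 3 held 29.15, 29.96 and 29.2% of their events. The controls 1, 2 and 3 held 24.1, 20.9 and 25.2%, as the mean over the same sets of domains. The groups did not overlap: the means were 29.45 ± 0.447% and 23.4 ± 2.26% (SD, n = 3 each), a ratio of 1.26.

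**Figure D1:**
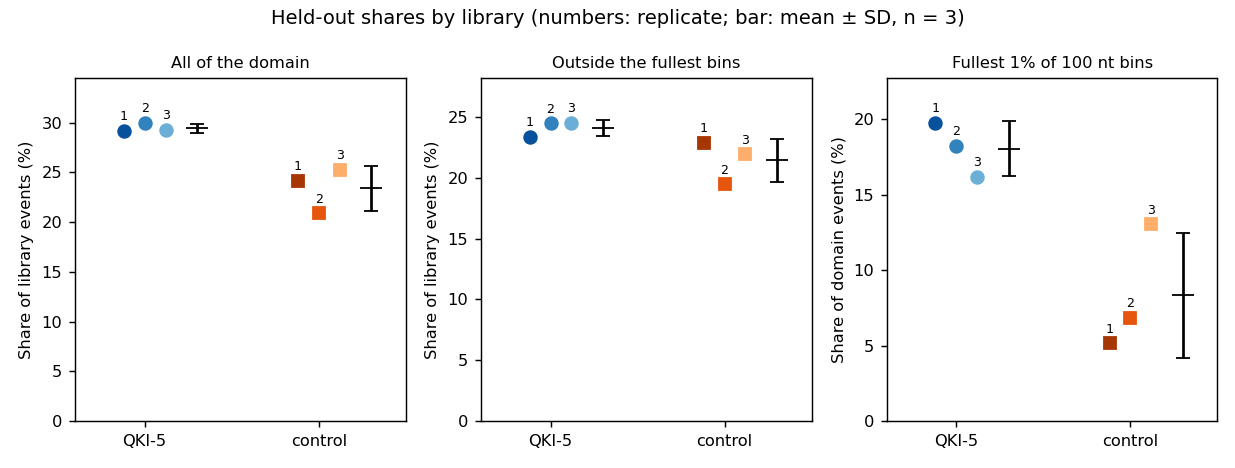
Held-out shares by library, as points with the replicate number, and the mean ± SD (n = 3) as a bar; the vertical axes are percentages of all library events (left and middle) or of the events inside domains (right). The domain share was 29.2 to 29.96% in QKI-5 libraries and 20.9 to 25.2% in controls, while the share of domain events in the fullest 100 nt bins was 16.2 to 19.75% against 5.13 to 13.0%.

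The gap was smaller without a few windows abundant in the controls, but picking windows by control signal can by itself narrow it. Without the 20 windows that took the highest mean share of control events, in numerator and denominator, the held-out shares were 30.9, 34.0 and 31.5% in QKI-5 libraries and 29.3, 27.3 and 29.6% in controls, a ratio of 1.12. With each position counted once, which sets aside repeated events, they were 32.9, 37.4 and 34.6% against 32.25, 29.03 and 31.7%, a ratio of 1.13. Each QKI-5 library lay above each control in both cases.

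In the controls, domain windows held more events than the windows in neither domains nor shorter runs, and about as many as windows in shorter runs. A domain window held 19.98, 17.2 and 20.98 EPM in controls 1, 2 and 3, and 25.9, 23.9 and 24.6 EPM in QKI-5 libraries 1, 2 and 3. The 136381 other windows were below 5 EPM in a QKI-5 library or lay off chromosomes 1 to 22. They held 1.73, 1.80 and 1.68 EPM in the controls, and the windows of runs of 1 to 9 held 19.9, 20.6 and 19.7 EPM. Domains were thus lower than the shorter runs in control 2, higher in control 3 and level in control 1. An event was found in 84.0, 38.2 and 32.2% of domain windows in controls 1, 2 and 3, and in 13.2, 4.01 and 2.86% of those other windows. Control 1 had an event in every domain, while 18 domains had none in control 2 and 14 had none in control 3.

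The windows that passed the same threshold in runs of 1 to 9 make a comparison set. They numbered 27382 in 10437 runs. This set shared the threshold of the domains but not their level. Its windows held 18.5, 19.55 and 18.8 EPM in QKI-5 libraries 1, 2 and 3, against 25.9, 23.9 and 24.6 EPM in domain windows. Per event in these short runs, the domains held 0.561, 0.49 and 0.523 events in QKI-5 libraries 1, 2 and 3 and 0.402, 0.334 and 0.426 in controls 1, 2 and 3. The groups did not overlap. Both window sets were chosen on QKI-5 levels, so this is a description without a test. Short runs held 50.7 to 53.5% of QKI-5 events and 54.1 to 56.5% of control events.

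Events repeated at one position were less common in domains than in short runs. Events per position in domains were 1.37, 1.55 and 1.66 in QKI-5 libraries 1, 2 and 3 against 1.46, 1.85 and 1.84 in short runs. In controls 1, 2 and 3 they were 1.09, 1.29 and 1.45 against 1.42, 1.77 and 1.74. The value was lower in domains than in short runs in 6 of 6 libraries, a difference that was not tested. Windows in neither set held 1.27, 1.66 and 1.67 events per position in QKI-5 libraries and 1.29, 1.58 and 1.56 in controls. Domains were above these in QKI-5 library 1 and below them in the other libraries. The fullest position inside any domain held 167 events in a QKI-5 library and 9 in a control.

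The domain edges, set on QKI-5 libraries alone, were also edges in the controls. In the 5 windows upstream of the 5′ edge the controls 1, 2 and 3 held 2.90, 2.76 and 2.93 EPM per window, and in the first 5 windows inside they held 21.5, 19.4 and 21.8 EPM. These are ratios of 7.41, 7.01 and 7.45. In QKI-5 libraries 1, 2 and 3, where the rule fixes a fall, the ratios were 8.65, 8.56 and 8.22. The fall at the 3′ edge was smaller in all 6 libraries. There the 5 windows inside held 4.22, 3.95 and 4.56 times the EPM of the 5 windows beyond in controls 1, 2 and 3, and 4.93, 4.93 and 4.90 times in QKI-5 libraries.

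**Figure D2:**
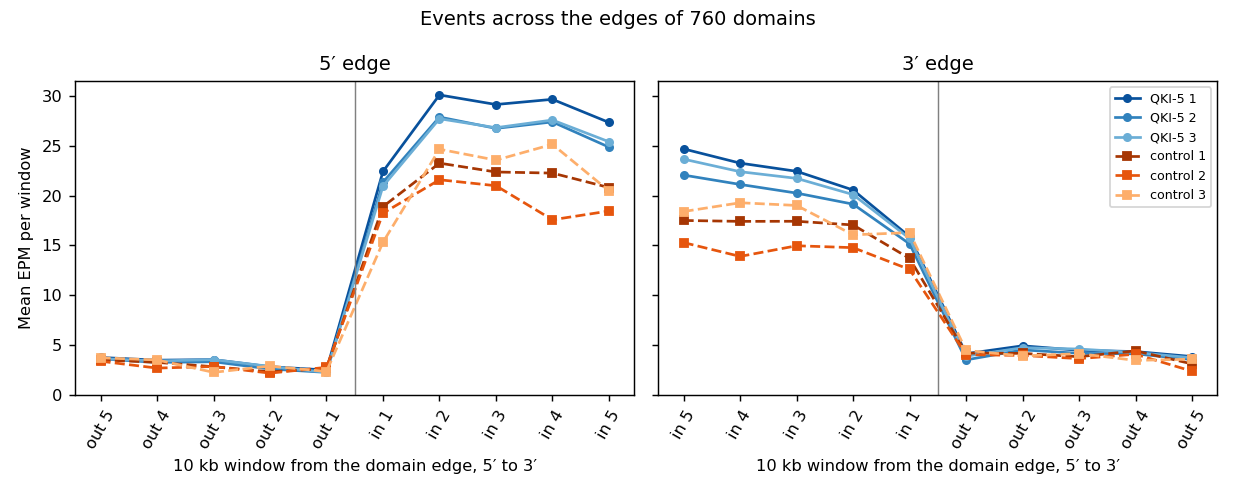
Mean EPM per 10 kb window (vertical axis) in the 5 windows outside and inside the 5′ edge (left) and the 3′ edge (right) of 760 domains, 1 line per library, leaving out outside windows that belong to another domain. At the 5′ edge the controls hold 2.34 to 2.76 EPM in the first window outside and 15.3 to 18.9 EPM in the first inside, and in QKI-5 libraries the first window outside holds 2.25 to 2.49 EPM and the first inside 20.95 to 22.4 EPM.

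Events leaned toward the 5′ part of domains, and they did so in both groups. The rule did not use the order of windows. Each domain was split at its middle, and its 5′ side is the part before the middle in the direction of the strand. The 5′ side held 55.9, 56.2 and 54.85% of domain events in QKI-5 libraries 1, 2 and 3 and 55.6, 56.4 and 54.6% in controls 1, 2 and 3. The groups overlapped, with means of 55.6 ± 0.698% and 55.55 ± 0.923% (SD, n = 3 each, two-sided exact permutation p = 0.9). The direction of the small difference changed with the setting.

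The decline was gradual along the domain, which was cut into 10 equal parts from 5′ to 3′. Part 2 held the largest share in each QKI-5 library, 12.3, 12.2 and 11.85% of events in libraries 1, 2 and 3, and part 10 the smallest, 7.06, 7.27 and 7.28%. In controls 1, 2 and 3 part 2 held 12.2, 12.7 and 11.65% and part 10 held 7.46, 7.83 and 8.09%. Part 2 was the fullest in controls 1 and 2, and part 4, with 12.02%, in control 3. Part 1 was lower than part 2 in all 6 libraries, and it contains the window at which the run begins.

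**Figure D3:**
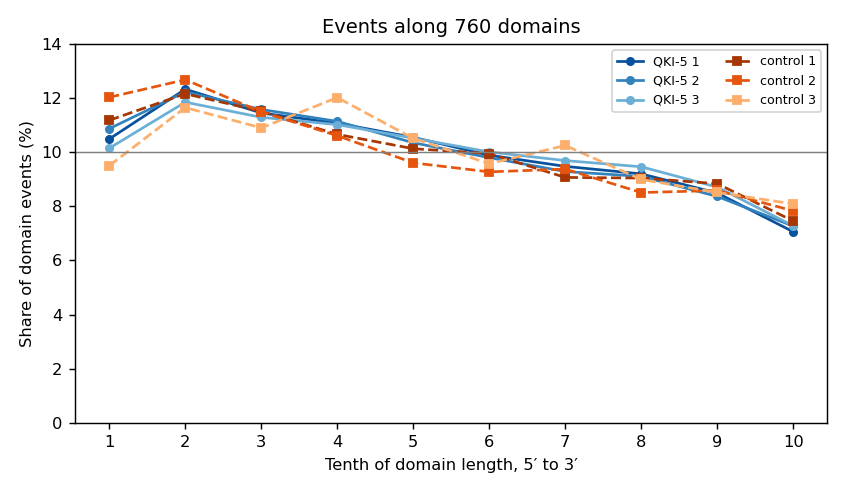
Share of domain events (vertical axis, percent, summed over 760 domains) in each of 10 equal parts of domain length from 5′ to 3′ (horizontal axis), 1 line per library. The grey line marks 10%, the share of an even spread. All 6 lines end lower than they begin, from 9.503 to 12.03% in part 1 to 7.06 to 8.09% in part 10.

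The lean to the 5′ side differed between classes of length and was larger in domains of 20 to 29 windows than in shorter ones in each library. In the 503 domains of 10 to 14 windows the 5′ side held 54.35, 54.5 and 53.8% of events in QKI-5 libraries 1, 2 and 3, and in the 157 domains of 15 to 19 windows 54.7, 54.7 and 53.8%. In the 74 domains of 20 to 29 windows it held 58.5, 58.3 and 56.8%, and in controls 1, 2 and 3 it held 59.7, 59.8 and 55.6% there, against 53.1, 54.8 and 53.5% in the shortest class.

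The 26 domains of 30 to 50 windows held 60.05, 61.5 and 58.3% on the 5′ side in QKI-5 libraries and 59.6, 59.8 and 57.2% in controls. That level rested on the 2 with the most QKI-5 signal per window, on chromosomes 6 and 8, both described further on. Without them, a setting chosen after the data were seen, the other 24 held 55.2, 56.2 and 53.99% in QKI-5 libraries and 54.9, 56.03 and 53.7% in controls, so there was no steady rise with length.

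Runs of 5 to 9 windows, 1763 of them, held 52.95, 53.15 and 52.1% in QKI-5 libraries 1, 2 and 3 and 54.5, 53.2 and 52.2% in controls 1, 2 and 3. Domains exceeded these runs in 6 of 6 libraries, by 2.93, 3.02 and 2.70 percentage points in QKI-5 libraries 1, 2 and 3 and by 1.14, 3.23 and 2.34 in controls 1, 2 and 3 (two-sided exact paired permutation p = 0.03125, the smallest that 6 libraries allow). All 6 libraries were read over the same domains and runs, which the QKI-5 libraries chose, so this p-value does not measure spread between regions. Without those 2 domains the differences were 2.28, 2.25 and 2.15 and 0.513, 2.75 and 1.90 points. Domain by domain the lean with length was weak, with a Spearman rho of 0.0939 over 760 domains as a description.

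Single domains differed widely in this lean. The 5′ side held over 50% of events in all 3 QKI-5 libraries in 435 domains and under 50% in all 3 in 194. Of the 435, 350 were also over 50% in the pooled controls and 73 were under it. Of the 194, 127 were also under 50% in the pooled controls. The share of one domain was alike between QKI-5 libraries (Spearman rho 0.876 to 0.934 over 760 domains) and less so against the pooled controls (0.545), whose counts per domain are small. These correlations are descriptions over domains of shared libraries.

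The 3 domains with the highest 5′ share lay on chromosomes 2, 5 and 8. On chromosome 2, plus strand, 10440001 to 10550000 had 83.7, 82.7 and 84.4% of QKI-5 events in its 5′ side and 72.3% of 65 pooled control events. Its window 4 held 256, 321.5 and 266.5 EPM in QKI-5 libraries 1, 2 and 3, and the strongest 1 kb, 10476001 to 10477000, took 34.5, 25.6 and 28.5% of the domain's QKI-5 events. Only 2 of the 65 control events fell there, so that 1 kb held little of the control lean. On chromosome 5, plus strand, 138610001 to 138710000 had 82.6, 85.5 and 81.6% in QKI-5 libraries and 74.6% of 126 control events. On chromosome 8, minus strand, 118790001 to 119130000 had 81.2, 81.6 and 81.7% and 81.3% of 509 control events.

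The 3 domains with the lowest 5′ share lay on chromosomes 3, 6 and 11. On chromosome 3, plus strand, 197470001 to 197620000 had 20.9, 26.6 and 21.8% of events in its 5′ side in QKI-5 libraries 1, 2 and 3 and 28.4% of 74 control events. Its windows 11 and 12 carried a mean of 137 and 133 EPM in QKI-5 libraries, against 10.03 EPM in the first. On chromosome 6, plus strand, 170620001 to 170720000 had 23.8, 22.5 and 20.2% and 25.0% of 44 control events. On chromosome 11, minus strand, 2960001 to 3080000 had 20.3, 19.4 and 22.6% and 23.2% of 82 control events. All 6 domains leaned the same way in the pooled controls as in QKI-5 libraries. Control 1 gives 137926 of the 209211 events of the pooled control libraries. In the domain on chromosome 6, control 2 alone leaned the other way, with 63.6% of 11 events in the 5′ side.

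The strand opposite a domain was nearly empty. For each 100 events on the domain strand, leaving out the pair that overlaps between strands, the opposite strand held 1.03, 0.977 and 1.195 events in QKI-5 libraries 1, 2 and 3 and 1.05, 0.832 and 1.33 in controls 1, 2 and 3. The groups overlapped (means 1.07 ± 0.114 and 1.07 ± 0.2485, SD, n = 3 each, two-sided exact permutation p = 1.0). With a threshold of 3 EPM they did not overlap, at 1.26, 1.26 and 1.395 events in QKI-5 libraries and 1.71, 1.57 and 1.67 in controls (two-sided exact permutation p = 0.1, the smallest that 3 against 3 allows). The domain signal thus kept to one strand in both kinds of library.

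Inside domains the signal was continuous at 10 kb and uneven below that scale. The fullest window of a domain held a median of 2.47, 2.445 and 2.38 times its median window in QKI-5 libraries 1, 2 and 3. The middle 90% of domains ranged from 1.49 to 5.62 times in library 1. The pattern of windows within domains was alike between QKI-5 libraries, with Spearman rho 0.812 to 0.89 over 10969 windows relative to their domain mean, and 0.376 to 0.386 between a QKI-5 library and the pooled controls. The controls' lower values come with under 3 events per window in each library.

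Of the 109690 bins of 1 kb in the domains, 97.3, 81.7 and 87.65% held an event in QKI-5 libraries 1, 2 and 3, and 20.75, 5.14 and 4.04% in controls 1, 2 and 3. These shares fell with depth. Computed for an equal number of 4727 positions per library, the expected shares were 4.12, 4.08 and 4.10% in QKI-5 libraries and 4.15, 4.06 and 4.04% in controls. With so few positions nearly each one falls in a bin of its own, so this measure could hardly differ. For an equal 6861 events the shares were 5.64, 5.655 and 5.72% in QKI-5 libraries and 5.805, 4.67 and 4.04% in controls, where control 1 lay above and controls 2 and 3 below the QKI-5 libraries.

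The fullest short bins of the domains held a larger share of events in QKI-5 libraries than in controls. The fullest 1% of 100 nt bins in the domains were chosen from 2 QKI-5 libraries and measured in the remaining one and in the controls. This comparison was chosen with the data in view, and bins picked for QKI-5 signal favour a QKI-5 excess, so no test is given. They took 19.75, 18.3 and 16.2% of the domain events of QKI-5 libraries 1, 2 and 3. In controls 1, 2 and 3 they took 5.13, 6.81 and 13.0%. The means were 18.1 ± 1.80% and 8.32 ± 4.16% (SD, n = 3 each), a ratio of 2.17, and no control reached a QKI-5 library. With bins of 1000 nt the shares were 12.8, 11.9 and 10.9% in QKI-5 libraries and 3.796, 4.695 and 8.40% in controls, a ratio of 2.11, so the gap was not particular to 100 nt. Control 3 stood apart from the other controls, and without it the ratio was 3.025. Whether events of QKI-5 libraries were assigned to control 3 was not tested, and its values here, at shared positions and in single bins carry that limit. With each position counted once, control 3, at 12.6%, exceeded QKI-5 library 1 at 12.35%, and the groups overlapped.

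The rest of the domain, outside those bins, held 23.4, 24.5 and 24.5% of all events in QKI-5 libraries 1, 2 and 3 and 22.9, 19.5 and 21.9% in controls 1, 2 and 3. The ratio of the means was 1.13 (24.1 ± 0.643% against 21.4 ± 1.77%, SD, n = 3 each). With each position counted once, the groups overlapped, at 28.9, 31.8 and 30.1% against 30.7, 27.1 and 27.7%. The choice of the bins by QKI-5 signal leaves less of it in the remainder, so the ratios inside and outside the bins are not compared.

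Control positions also matched QKI-5 positions to the nucleotide more often than the density of QKI-5 positions. In the domains, QKI-5 libraries 1, 2 and 3 had an event at 1.38, 0.331 and 0.428% of bases. Of the 27767 domain positions of control 1, 13.8, 5.02 and 6.02% were also positions of QKI-5 libraries 1, 2 and 3. Of the 6065 positions of control 2 the shares were 14.5, 7.44 and 6.58%, and of the 4727 of control 3 they were 16.8, 7.07 and 9.71%. The same-numbered QKI-5 library gave the highest of the 3 controls' shares for numbers 2 and 3 and the lowest for number 1. What shared positions reflect was not tested.

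The fullest 1% of bins, taken over all 3 QKI-5 libraries, were spread over 749 of the 760 domains, with a median of 8 and at most 309 per domain. The strongest 1 kb of a domain was the same in all 3 QKI-5 libraries in 295 domains. It took a median of 6.21, 5.71 and 5.28% of the domain's events in QKI-5 libraries 1, 2 and 3. In 6 domains, described because of this value, it took over 26% of QKI-5 events on average.

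One of these was chromosome 3, plus strand, 128440001 to 128540000, where 128471001 to 128472000 took 42.6, 34.7 and 35.1% of events in QKI-5 libraries 1, 2 and 3. Of its 70 pooled control events, 11 lay there. Its 100 nt from 128471001 to 128471100 held 201, 140 and 126 EPM in QKI-5 libraries, the most of any 100 nt bin by its lowest QKI-5 library. The controls 1, 2 and 3 held 0, 0 and 6 events there. All 6 came from control 3, which equals 201 EPM in that library. On chromosome 2, minus strand, 17931001 to 17932000 took 37.4, 40.4 and 32.4% of its domain (17840001 to 17940000) in QKI-5 libraries, and 1 of 20 control events.

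On chromosome 12, plus strand, 64253001 to 64254000 took 27.0, 34.2 and 25.8% of QKI-5 events in the domain from 64240001 to 64360000, and none of its 34 control events. On chromosome 5, plus strand, 108318001 to 108319000 took 31.4, 22.9 and 31.8% in the domain from 108220001 to 108320000, and 1 of 18 control events. On the minus strand of chromosome 5, 64854001 to 64855000 took 30.8, 30.1 and 23.1% in the domain from 64760001 to 64860000, and none of its 84 control events. The 100 nt from 64854001 held 116, 83.05 and 84.8 EPM in QKI-5 libraries 1, 2 and 3. A count of 0 over the pooled controls allows up to 14.3 EPM. Since these bins were picked for their QKI-5 signal, a lower control share in them is part of the choice.

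Some strong bins were as full in a control. On chromosome 5, plus strand, 138651201 to 138651300 carried 108, 119 and 103.5 EPM in QKI-5 libraries 1, 2 and 3 and 1, 1 and 4 events in controls 1, 2 and 3. On chromosome 6, minus strand, 75795901 to 75796000 carried 59.99, 49.5 and 59.5 EPM in QKI-5 libraries and 0, 0 and 4 control events. In both, control 3 reached 134 EPM, above each QKI-5 library, on 4 events.

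The 6 longest domains had 39 to 50 windows. The longest, on chromosome 13, minus strand, 60240001 to 60740000, carried 2123, 1809 and 2165 EPM in QKI-5 libraries 1, 2 and 3 and 1399, 772 and 1342 EPM in controls 1, 2 and 3. Its log2 fold change was 1.475 (SE 0.516), or 0.78 with library totals as scaling. Its fullest window, 60310001 to 60320000, held a mean of 104.6 EPM and lay near its 3′ end, and the strongest 1 kb took 2.16, 1.68 and 1.61% of its events. A long domain has more such bins, so this share is not compared with that of shorter ones. The fullest window held 2.635, 2.79 and 2.95 times the median window in QKI-5 libraries 1, 2 and 3, which is likewise not compared with shorter domains. Its 5′ side held 43.0, 45.9 and 40.8% of QKI-5 events.

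On chromosome 17, plus strand, 61040001 to 61510000 (47 windows) carried 1156, 1131 and 1133 EPM in the QKI-5 libraries 1, 2 and 3 and 819, 578.7 and 939 EPM in controls 1, 2 and 3. It was the least variable of the 6 between QKI-5 libraries (1140 ± 13.7 EPM, SD, n = 3). On chromosome 6, minus strand, 56310001 to 56720000 (41 windows) carried 1880, 1746 and 1464 EPM and 1196, 1326 and 1275 EPM. On chromosome 3, plus strand, 61550001 to 61950000 (40 windows) carried 1273, 1277 and 1100.0 EPM and 1059, 747 and 1073 EPM. On chromosome 8, minus strand, 131060001 to 131460000 (40 windows) carried 1857, 2031 and 1483 EPM and 1515, 1061 and 1107 EPM. Each QKI-5 library lay above each control in these domains, except on chromosome 8, where QKI-5 library 3 lay below control 1.

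The sixth of the longest was also one of the strongest. On chromosome 6, plus strand, 37740001 to 38130000 (39 windows) carried 3725, 3356 and 3398 EPM in QKI-5 libraries and 2712, 2098 and 2516 EPM in controls 1, 2 and 3. Its fullest window, 37810001 to 37820000, held 456, 442 and 478 EPM in QKI-5 libraries and 261, 121 and 268 EPM in controls. Further 3′ the level fell, to a mean of 13.8 EPM in 38010001 to 38020000. The 5′ side held 79.6, 80.4 and 79.3% of QKI-5 events and 78.4% of 536 control events, so both groups leaned alike.

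**Figure D4:**
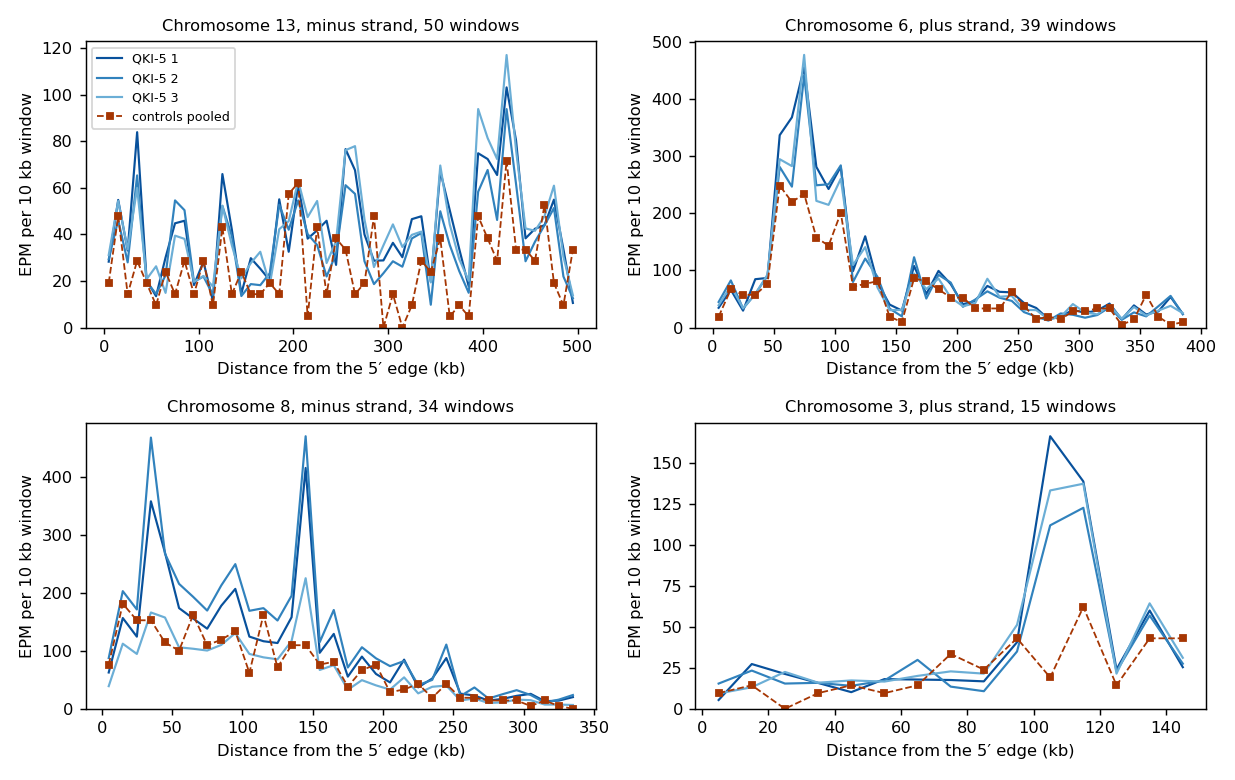
EPM per 10 kb window (vertical axis) against distance from the 5′ edge in kb (horizontal axis) in 4 domains, for each QKI-5 library (lines) and the pooled controls (squares). The domains are the longest (chromosome 13), the domain of 39 windows on chromosome 6, the strongest per window (chromosome 8) and one with a low 5′ share (chromosome 3); the pooled controls follow the slope of QKI-5 libraries on chromosomes 6 and 8 at a lower level in the fullest windows.

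The 6 domains with the most QKI-5 signal per window held 73.6 to 103 EPM per window on average, against a median of 20.3 over all 760. The highest was the domain of 34 windows on chromosome 8, minus strand, 118790001 to 119130000, with 108, 133 and 67.6 EPM per window in QKI-5 libraries 1, 2 and 3. In sum it held 3673, 4523 and 2298 EPM there and 2596, 2508 and 1577 EPM in controls 1, 2 and 3. QKI-5 library 3 was the lowest of its group and control 3 the lowest of the controls, and QKI-5 library 3 lay below controls 1 and 2. The domain just described on chromosome 6 came next, with a mean of 89.6 EPM per window.

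On chromosome 3, minus strand, 98510001 to 98620000 carried 1049.7, 1067 and 739 EPM in QKI-5 libraries and 696, 651 and 302 EPM in controls 1, 2 and 3. On the same strand, 145760001 to 145880000 carried 1105, 1002 and 761 EPM and 537, 603 and 503 EPM. They differed in shape: the strongest 1 kb took 23.6, 19.6 and 18.2% of the QKI-5 events of the former and 4.497, 2.89 and 4.41% of those of the latter. On chromosome 20, plus strand, 30940001 to 31040000 carried 845, 720 and 822 EPM in QKI-5 libraries and 667, 482 and 671 EPM in controls. On chromosome 5, plus strand, 138610001 to 138710000 carried 746, 747 and 714 EPM and 587, 530 and 772 EPM, so control 3 lay above all 3 QKI-5 libraries.

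Across all 760 domains the level per window in QKI-5 libraries went with that in controls, with a Spearman rho of 0.732, 0.516 and 0.475 against controls 1, 2 and 3, in order of control depth. Every QKI-5 library lay above every control in 243 domains (32.0%), and every QKI-5 library lay below in 30 (3.95%). Over the 20999 features tested below, the same orders were found in 23.4% and 3.97%. Those other than domains are single windows, with a median of 3 summed control events against 46 per domain. The remaining 487 domains overlapped between groups. The rule used the QKI-5 levels, so nothing is read from these counts.

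**Figure D5:**
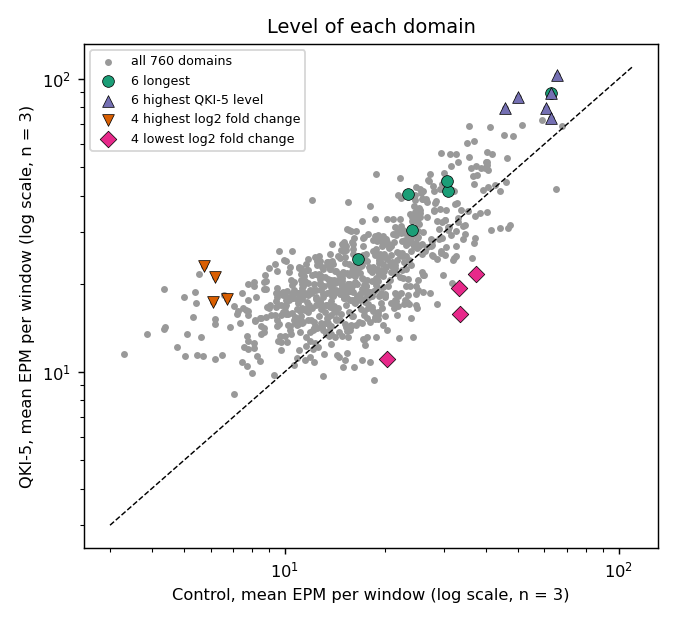
Mean EPM per 10 kb window in QKI-5 libraries (vertical axis, log scale) against controls (horizontal axis, log scale) for 760 domains, n = 3 libraries each; the dashed line marks equal levels. Most domains lie above the line, with medians of 20.3 and 16.2 EPM per window, and the 4 domains with the lowest fold change lie below it.

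For single domains, edgeR's quasi-likelihood test was fitted to a table in which each domain was 1 feature beside all other windows. All 760 domains passed its filter on low counts. It called 17 domains (2.24%) higher and 0 lower in QKI-5 iCLIP at an adjusted p under 0.05. Of the 20999 features in all, 0.838% were higher and 0.148% lower. An unadjusted p under 0.05 was found for 463 of the 760 domains and 4110 of the 20999 features. The DESeq2 Wald test called 231 domains higher and 1 lower, and 424 of the 20999 features higher and 220 lower. The rule used the QKI-5 level, so these counts are a description. Domains also held a median of 46 summed control events against 3 for the other features, so their shares called are not at like depth. Without control 1 the edgeR count was 713 domains, with 1827 of 41931 features higher in all. Without control 2 it was 0 (42 of 44311 features), and without control 3 it was 6 (120 of 44641). Without QKI-5 library 1 it was 0 (1 of 1266 features), and without QKI-5 library 3 it was 1 (8 of 1283). Its size thus depends on single libraries. Leaving out a QKI-5 library also left only 1266 to 1294 features past the filter. Without QKI-5 library 2, 13 domains were higher and 8 lower, among 37 features higher and 76 lower of 1294.

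The median log2 fold change, QKI-5 over control, was 1.06 over domains and 0.78 over all features with TMM factors, and 0.38 and 0.18 with library totals. Domains thus lay 0.28 and 0.20 above the median feature on the log2 scale under these scalings, but 0.10 below it with no filter on low counts (1.68 against 1.78), where 303 domains were above the median feature. The difference was 0.042 to 0.076 without any one QKI-5 library and -4.63 without control 1, so its direction depended on the features and libraries kept. With TMM factors 754 domains had a log2 fold change above 0, where 76.6% of all features did, and with library totals 608 domains did. Fold changes of single domains below carry the TMM shift.

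Among domains with 10 or more pooled control events, the 4 with the highest log2 fold change were all thin in the controls. The domain left out by that limit, with 8 control events, had a log2 fold change of 2.56 (SE 0.638). On chromosome 11, plus strand, 28230001 to 28350000 carried 290.2, 237 and 304 EPM in QKI-5 libraries 1, 2 and 3 and 10, 0 and 4 events in controls 1, 2 and 3, or 72.5, 0 and 134 EPM. The log2 fold change was 2.69 (SE 0.59). The 0 in control 2 allows up to 72.3 EPM. On chromosome 11, minus strand, 129050001 to 129150000 carried 187, 157 and 177 EPM and 6, 3 and 2 control events (log2 fold change 2.33, SE 0.601).

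On chromosome 2, plus strand, 149400001 to 149550000 carried 286, 282 and 232 EPM in QKI-5 libraries and 10, 4 and 4 events in controls 1, 2 and 3 (log2 fold change 2.25, SE 0.564). On chromosome 6, minus strand, 45210001 to 45340000 carried 293, 244 and 286 EPM and 16, 1 and 3 events (log2 fold change 2.21, SE 0.555). In all 4 each QKI-5 library exceeded each control, which their choice by fold change favours. With library totals the 4 log2 fold changes were 2.06, 1.70, 1.59 and 1.57 in the order given.

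The 4 domains with the lowest log2 fold change held more EPM in controls on average. EPM and fold changes are relative to library size and are not amounts recovered. In event counts, each QKI-5 library held more than each control in all 4. The first below held 1637, 471 and 634 events in QKI-5 libraries and 49, 27 and 12 in controls. On chromosome 17, plus strand, 78230001 to 78370000 carried 225, 219.8 and 219 EPM in the QKI-5 group and 355, 651 and 403 EPM in controls 1, 2 and 3, so the groups did not overlap. Its log2 fold change was -0.27 (SE 0.463) with TMM factors and -1.02 with library totals. On chromosome 14, minus strand, 69340001 to 69450000 carried 183, 279.9 and 178 EPM against 326, 506 and 268 EPM, where QKI-5 library 2 exceeded control 3.

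On chromosome 1, plus strand, 43990001 to 44100000 carried 214, 277 and 224 EPM for QKI-5 and 334, 699 and 201 EPM in controls 1, 2 and 3. On chromosome 21, plus strand, 45430001 to 45530000 carried 108, 118 and 106 EPM against 123.3, 386 and 101 EPM. Control 2 was the highest library in all 4, and control 3 lay within or below the QKI-5 range in the last 3. With TMM factors the log2 fold changes of the last 3 were -0.045, -0.032 and -0.032, and with library totals -0.77, -0.77 and -0.74, in the order chromosome 14, 1 and 21. Their sign changed under other settings.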

How the data were processed

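The authors deposited 1 file per library with whole-number counts of crosslink events at single-nucleotide positions on one strand, not normalized. The submitters' processing notes name Bowtie, cutadapt and the hg19 build. Versions, and whether PCR copies were merged, are not stated in any source used here. Domains, EPM, shares along the domain and bins were computed from these counts in Python 3.11.15 (pandas 2.3.3, numpy 2.4.6, scipy 1.17.1). The 5′ and opposite-strand shares were compared by exact permutation over libraries, and held-out shares are given without a test. Domains, each summed to 1 feature, and all other windows were tested together with edgeR 4.0.16 (R 4.3.3, limma 3.58.1; TMM, filterByExpr, group as the only term, Benjamini-Hochberg), with DESeq2 1.42.0 as an alternative. The edgeR fit was also run on data simulated with a fixed spread and no replicate effects, a check that does not cover the spread of these libraries. Standard errors are the log2 fold change over the root of the F statistic. The members, lists and tests were chosen with earlier results of these data known. Domains named are the 6 longest, the 6 strongest per window, the 4 highest and 4 lowest log2 fold changes with 10 or more pooled control events, and the 3 highest and 3 lowest 5′ shares. Single bins and the 6 domains led by 1 kb were chosen after their values were seen. Gene lists and cell markers need hg19 gene models and were not run.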

Additional observations from a re-analysis of the deposited data

How the results depend on the processing

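A threshold of 3 or 10 EPM gave 1231 or 220 domains (18783 or 3070 windows), and a minimum run of 20 windows gave 100 (2588). The mean held-out domain share was higher in QKI-5 libraries under all 15 alternatives, as was the mean share in the fullest bins under all 10. Choosing domains and bins by QKI-5 signal favours this direction, so these counts are a description. The 15 include domains called from all 3 QKI-5 libraries, not held out, and the replicate block, which repeats the main shares. In the fullest bins the groups overlapped with each position counted once. No paired test of 3 numbers can pass (replicate block: log2 ratios 0.34 and 1.23). Same-numbered libraries deviated together for numbers 2 and 3 but not 1 (correlations 0.107, 0.0826 and -0.0081 over all features), and QKI-5 library 1 was closest to control 3, so the numbers were not taken as pairs. Over domains alone the correlations were larger, at 0.287, 0.208 and 0.0306 for numbers 2, 3 and 1. QKI-5 library 1 and control 3 gave 0.144 there, and the remaining pairs -0.266 to 0.0272. What ties numbers 2 and 3 was not tested. With the replicate block, edgeR called 4 features higher and 0 lower, and 0 domains higher, at 1826 features with an unadjusted p under 0.05.

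Calls in the fit depended on the setting. Library totals gave 47 features higher and 88 lower (main 176 and 31) and 7 domains higher. DESeq2 size factors gave 85 and 48 features, the DESeq2 Wald test 424 and 220 (231 domains higher, 1 lower), no filter 626 and 10 (26 domains), and positions counted once 46 and 80 (11 domains). With 1 library left out, 1 to 1827 features were higher and 6 to 76 lower, and 0 to 713 domains were higher and 0 to 8 lower.

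Small group differences changed sign. The 5′ share difference (main 0.084 percentage points) was -0.098 with positions counted once, -0.54 with domains weighted equally and -0.40 to 0.61 with 1 library left out. The opposite-strand difference (main -0.0040 per 100) was -0.34 at 3 EPM, where the groups did not overlap, 0.0803 at 10 EPM and -0.124 to 0.124 with 1 library left out. Among 23 named domains, those with log2 fold changes near 0 changed sign in 22 of 276 values. Library totals gave -0.28 for chromosome 11, 2960001 to 3080000 (-0.56 to 1.52 with 1 library left out). No filter gave 0.59, 0.57, 0.35 and 0.60 for the low domains of chromosomes 1, 14, 17 and 21. The replicate block gave 0.14, 0.048 and 0.11 for those of chromosomes 1, 14 and 21, and positions counted once 0.0063 for chromosome 21. With 1 library left out those of chromosomes 1, 14, 17 and 21 ranged from -1.127 to 0.61, -1.255 to 0.72, -1.255 to 0.34 and -1.013 to 0.75. The cause was not tested. The mean QKI-5 share on the 5′ side in domains of 30 to 50 windows was 59.95%, and 55.1% without the 2 strongest. Depth limits the controls: 1 event is 7.25 to 33.55 EPM there.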

Other observations

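Chromosome X lies outside the rule for domains. Under the same threshold and length it held 13 runs of 180 windows, with 0.492, 0.4495 and 0.488% of events in QKI-5 libraries 1, 2 and 3 and 0.381, 0.2845 and 0.322% in controls 1, 2 and 3. The longest, on the plus strand from 24710001 to 24920000 (21 windows), held 618, 488 and 742 EPM in QKI-5 libraries and 587, 193 and 503 EPM in controls. The run on the plus strand from 40940001 to 41100000 held 646, 557 and 829.7 EPM and 703, 313 and 604 EPM, so the groups overlapped in both. In some other runs they did not. The run on the minus strand from 73410001 to 73510000 held 818, 774.5 and 709 EPM in QKI-5 libraries and 471, 241 and 470 EPM in controls.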
